A study of Mus musculus with 8 samples.

Results

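Iron storage, transport and haem breakdown were followed through 10 genes, Fth1, Ftl1, Tfrc, Trf, Slc11a2, Slc11a1, Slc40a1, Cp, Cd163 and Hmox1, among the 23469 genes counted in mouse lung. They were taken by the Entrez identifiers of these symbols, and all 10 were found. The set was chosen by the measured levels of Fth1, which were lower in DDAH1-transgenic than in wild type lungs after PBS and higher after HDM, and the other members were taken for their function. Those genotype values of Fth1, and the HDM values within each genotype that follow from them, are therefore given as a description and with no test.

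The lungs came from wild type mice of the strain C57BL/6 and from DDAH1-transgenic mice, and DDAH1 is the enzyme that breaks down asymmetric dimethylarginine, an inhibitor of nitric oxide synthases. House dust mite (HDM) extract, 100 µg dissolved in PBS (50 µl), was given into the trachea on 3 occasions in each of 3 weeks, and control mice received PBS alone. Lungs were taken 24 h after the last dose. The groups are called WP and WH (wild type after PBS and after HDM) and TP and TH (DDAH1-transgenic after PBS and after HDM). RNA of 4 mice was pooled in each group, and each pool was sequenced as 2 libraries. Every SD and p-value below therefore measures the spread between 2 libraries of a pool and holds no variation between mice. The promoter of the transgene and the sex and age of the mice are not given in the sources used here.

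The 8 libraries held 5694928 to 11929374 counts, and the smallest was replicate 1 of TH. Xist, the transcript of the inactive X chromosome, had 113 to 197 counts in the PBS libraries and 20303 to 31372 in the HDM libraries, while the Y-linked Ddx3y had 621 to 719 and 2 to 3. Treatment and sex therefore cannot be told apart in any comparison of HDM with PBS in this text. The same holds for any difference between the genotype effects after PBS and after HDM. Ddah1 itself was 0.66 ± 0.26 higher in TP than in WP (log2 fold change ± SE) and 0.32 ± 0.29 lower in TH than in WH, with adjusted p-values of 0.358 and 0.637 in edgeR. Whether the counts of this mouse gene include reads of the transgene is not given in the sources used here. All 7 lung markers searched were tested in every comparison. Their summed level was 41511 to 48987 counts per 1000000 (CPM) in WP and 49758 to 72366 in TP. It was lower in the HDM groups, at 21373 to 25037 in WH and 21131 to 29827 in TH. On average over both genotypes, 4 of the 7 were lower with HDM and 1 was higher at an edgeR adjusted p-value under 0.05. Of all genes, 8.51% were lower and 10.6% higher at that limit.

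Iron that cells do not use at once is stored in ferritin, a shell built of heavy (Fth1) and light (Ftl1) chains. Iron bound to transferrin (Trf) enters through the transferrin receptor (Tfrc), crosses the endosomal membrane through DMT1 (Slc11a2) and leaves the cell through ferroportin (Slc40a1), and ceruloplasmin (Cp) oxidises it for loading onto transferrin. Macrophages recover iron from haemoglobin that they take up with haptoglobin through CD163, and haem oxygenase 1 (Hmox1) opens the haem ring. When iron is scarce, iron regulatory proteins bind a hairpin in the messenger RNA, the iron-responsive element, which blocks translation from the 5′ UTR of ferritin and ferroportin messages and protects the transferrin receptor message from decay through its 3′ UTR.

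These hairpins are shown because they are the control sequences by which the storage and uptake genes are known to be regulated together after transcription. Read counts do not measure translation, which the hairpins of the 5′ UTR block. Protection of the Tfrc message from decay could change its counts, and this was not tested. The transcripts of all 10 genes (GENCODE M21, build GRCm38) were searched on the transcribed strand for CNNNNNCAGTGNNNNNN, with the 5 bases after the first C able to pair with the last 5, G-T pairs included. A match was found in 4 of the 10 genes. In the sequences below, 30 bases each and written 5′ to 3′ on the transcribed strand, capitals mark the loop.
Fth1, 5′ UTR, chr19:9982732-9982761, plus strand: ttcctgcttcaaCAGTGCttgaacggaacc
Ftl1, 5′ UTR, chr7:45459778-45459807, minus strand: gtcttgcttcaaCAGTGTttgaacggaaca
Slc40a1, 5′ UTR, chr1:45925464-45925493, minus strand: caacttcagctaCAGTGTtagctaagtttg
Tfrc, 3′ UTR, match 1, chr16:32631219-32631248, plus strand: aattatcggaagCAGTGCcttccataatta
Tfrc, 3′ UTR, match 2, chr16:32631598-32631627, plus strand: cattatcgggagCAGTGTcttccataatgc
Tfrc, 3′ UTR, match 3, chr16:32631663-32631692, plus strand: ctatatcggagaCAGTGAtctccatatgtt
Tfrc, 3′ UTR, match 4, chr16:32631710-32631739, plus strand: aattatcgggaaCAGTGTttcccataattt
Among 20382 protein-coding transcripts, 0.0981% held a match in the 5′ UTR and 0.53% in the 3′ UTR. A match is a description of these letters, and for the other 6 genes it says only that they were not found in the transcript searched.

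**Figure D1:**
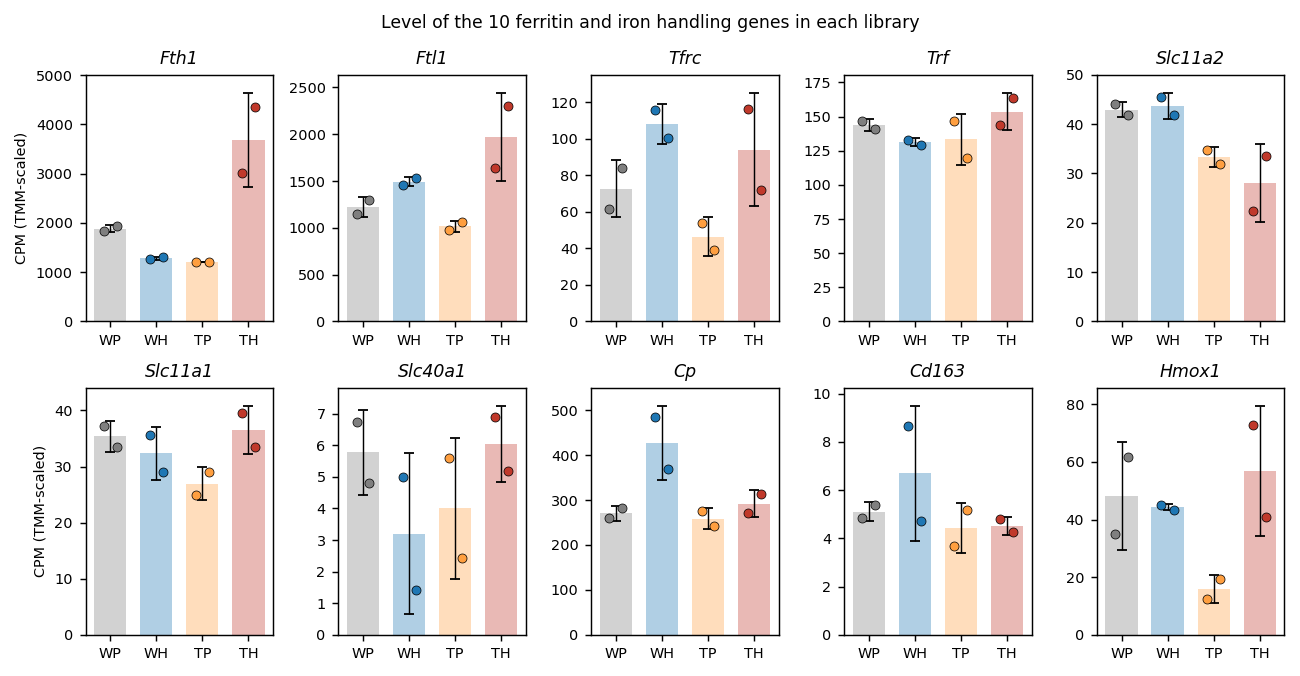
CPM (counts per 1000000, TMM-scaled over 8 libraries) of each gene on a linear axis from 0. Bars are means of 2 libraries, lines are the SD and points are the libraries of WP, WH, TP and TH. Fth1 was at 3015 and 4360 CPM in the TH libraries and at 1211 to 1933 CPM in the others, and Hmox1 was lowest in TP.

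Both ferritin chains were abundant in all groups. Per kilobase of transcript, the mean level in WP was 1260 CPM for Fth1 and 1263 CPM for Ftl1, while the next highest of the 10 genes were Cp at 67.2 and Trf at 56.0 CPM. Cd163 and Slc40a1 were the lowest, at 1.16 and 1.71 CPM per kilobase. The reads were counted in coding regions, and per kilobase of coding sequence the WP levels of the ferritin chains became 3446 CPM for Fth1 and 2228 CPM for Ftl1, so that the order of the chains in that group depended on the length used.

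Fth1 (GeneID 14319, chromosome 19, bases 9980600 to 9985111 of GRCm38) is the heavy chain, which carries the ferroxidase site. Its libraries were at 1831 and 1933 CPM in WP, 1260 and 1304 in WH, 1211 and 1211 in TP, and 3015 and 4360 in TH. The order of the groups was TH, WP, WH and TP, and no neighbouring groups overlapped. TP was lower than WP by a log2 fold change of -0.65 ± 0.09 (1.57-fold), and TH was higher than WH by 1.56 ± 0.17 (2.95-fold). The difference between these genotype values was 2.16 ± 0.20. Within wild type, WH was below WP by a log2 fold change of -0.55 ± 0.09, and within DDAH1-transgenic mice TH was above TP by 1.62 ± 0.17. The libraries of TH differed from each other by more than those of any other group, with an SD of 952 CPM against 72.2 in WP, 31.2 in WH and 0.246 in TP.

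Averaged over the genotypes, the HDM value of Fth1 was 0.53 ± 0.10 on the log2 scale (edgeR adjusted p = 0.000779). Fth1 was chosen because its genotype difference changed direction between treatments, and that choice read its level in every group. The adjusted p-value comes from the same 8 libraries, so it is not free of the choice and is no independent test. Of all genes tested in that contrast, 19.1% were past the threshold of an adjusted p-value of 0.05 and 10.6% were higher. The average joins a lower value in wild type and a higher value in DDAH1-transgenic mice. With an offset for transcript length in each library it was 0.21 ± 0.08 (adjusted p = 0.0816), and with an offset for coding length it was 0.20 ± 0.08 (adjusted p = 0.101).

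Ftl1 (GeneID 14325, chromosome 7, bases 45457944 to 45459886) is the light chain, which helps the core of iron mineral to form. It was at 1148 and 1298 CPM in WP, 1458 and 1529 in WH, 976 and 1059 in TP, and 1641 and 2305 in TH. No neighbouring groups overlapped in the order TH, WH, WP and TP. Ftl1 rose with HDM in DDAH1-transgenic mice by 0.97 ± 0.17 (1.964-fold, edgeR adjusted p = 0.00333) and over both genotypes by 0.62 ± 0.10 (adjusted p = 0.000227). In wild type mice the HDM value was 0.29 ± 0.10 (adjusted p = 0.107), and the difference between the genotypes in it, 0.67 ± 0.20, did not pass (adjusted p = 0.109). The genotype values were -0.28 ± 0.10 after PBS and 0.44 ± 0.17 after HDM, with adjusted p-values of 0.312 and 0.22.

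The calls on Ftl1 were lost with the transcript-length offset, to 0.15 ± 0.15 in DDAH1-transgenic mice (adjusted p = 0.602) and 0.11 ± 0.08 on average (adjusted p = 0.393), and its genotype value after HDM turned to -0.07. With the coding-length offset the average stayed past the threshold at 0.30 ± 0.09 (adjusted p = 0.0239) and the value in DDAH1-transgenic mice did not, at 0.46 (adjusted p = 0.0977). The latter call was also lost without TP replicate 1 (0.91, adjusted p = 0.112) or TP replicate 2 (1.03, adjusted p = 0.0962). Without TH replicate 1, the genotype value after HDM passed at 0.65 (adjusted p = 0.000242), and so did the difference between the genotype effects at 0.89 (adjusted p = 0.00219). Of the 50-base stretches of the Ftl1 transcript, 90.6% also stand in transcripts of 17 other genes, mostly of the pseudogene Ftl1-ps1, so that its counts depend on how reads with several matches were treated. For Fth1 that share was 4.01%. The table held 7 other rows of the ferritin heavy chain family, all at 0 counts, and no other row of the light chain.

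Because both chains were measured in each library, their ratio is free of library scaling. It is not free of the trend with gene length given below, which moved the chains by unlike amounts. Nor is it free of the handling of reads with several matches, which bears mostly on Ftl1. There were 1.59 and 1.49 counts of Fth1 for each count of Ftl1 in WP, 0.864 and 0.853 in WH, 1.24 and 1.14 in TP, and 1.84 and 1.89 in TH. The heavy chain thus had more counts than the light chain in every group except WH, where the light chain had more in both libraries. The libraries of a group differed less from each other than from those of any other group. The ratio contains the values by which Fth1 was chosen and was not tested.

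Over the 8 libraries, the log2 CPM of 12028 other genes was correlated with that of Fth1, as a description over libraries that share pools and depth. The highest Pearson correlations were those of Mrpl20 (0.987), a protein of the mitochondrial ribosome, Elof1 (0.965), a transcription elongation factor, Ctnnb1 (0.954), the gene of beta-catenin, U2af1l4 (0.952), a splicing factor, and Polr2d (0.952), a subunit of RNA polymerase II. Mrpl20 was at 19.9 ± 2.5 CPM in WP, 14.04 ± 0.11 in WH, 14.8 ± 0.35 in TP and 45.4 ± 9.96 in TH (SD, n = 2). Of the iron genes, Ftl1 ranked at 442 with a correlation of 0.785 and Trf at 576 with 0.757. Hmox1 had 0.53, Tfrc 0.259, and Cp, Cd163 and Slc11a2 had negative values of -0.188, -0.279 and -0.46.

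**Figure D2:**
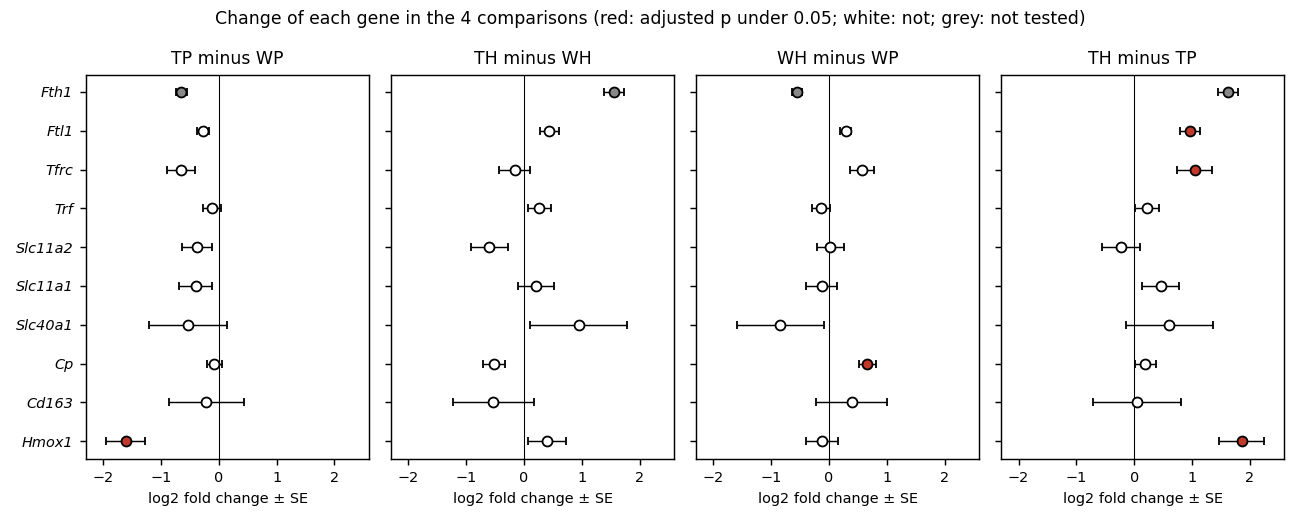
Log2 fold change with its SE (x axis) of each gene (y axis) in the comparisons TP minus WP, TH minus WH, WH minus WP and TH minus TP. Red points passed an adjusted p-value of 0.05, white points did not, and the grey points of Fth1 were not tested. Fth1 lay at -0.65 and 1.56 in the genotype comparisons, and Hmox1 was past the threshold in TP minus WP and in TH minus TP.

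Of the 6 transport genes, Tfrc and Cp passed the threshold with HDM. Tfrc (GeneID 22042, chromosome 16, bases 32608896 to 32632794) was at 61.6 and 83.8 CPM in WP, 116 and 100 in WH, 53.9 and 39.0 in TP, and 116 and 72.2 in TH. Both TH libraries and both WH libraries were above both TP libraries, and TH overlapped with WP and with WH. Tfrc rose with HDM in DDAH1-transgenic mice by 1.05 ± 0.30 (2.06-fold, edgeR adjusted p = 0.0398) and on average by 0.79 ± 0.18 (adjusted p = 0.00454). Its value in wild type was 0.57 ± 0.20 (adjusted p = 0.116). The genotype values were -0.66 ± 0.24 after PBS and -0.16 ± 0.26 after HDM (adjusted p = 0.319 and 0.823). The average was as large with the transcript-length offset, 0.88 ± 0.19 (adjusted p = 0.00309), and none of the 50-base stretches of Tfrc stood in another gene. The rise in DDAH1-transgenic mice was lost without TP replicate 1 (1.29, adjusted p = 0.151), without TP replicate 2 (0.83, adjusted p = 0.361), without TH replicate 1 (0.64, adjusted p = 0.2) and with the GC offset (0.91, adjusted p = 0.0534).

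Cp (GeneID 12870, chromosome 3, bases 19956933 to 20009750) was at 259 and 282 CPM in WP, 485 and 369 in WH, 275 and 243 in TP, and 271 and 313 in TH. The WH libraries lay above all others, while WP, TP and TH overlapped. Cp rose with HDM in wild type by 0.66 ± 0.15 (1.58-fold, edgeR adjusted p = 0.0141) and on average by 0.42 ± 0.12 (adjusted p = 0.0187). It was at 0.20 ± 0.19 in DDAH1-transgenic mice (adjusted p = 0.55), and the difference between the genotypes, -0.48 ± 0.24, did not pass (adjusted p = 0.356). TH was below WH by a log2 fold change of -0.51 ± 0.19 (adjusted p = 0.212). Without TH replicate 2 that value was -0.61 (adjusted p = 0.0226). The average effect was lost without WH replicate 1 (0.31, adjusted p = 0.124), without WP replicate 1 (0.38, adjusted p = 0.0977) and without TP replicate 2 (0.37, adjusted p = 0.0901).

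The other carriers did not pass the threshold in any comparison. Trf (GeneID 22041), the iron carrier of plasma, lay between 120 and 163 CPM in the 8 libraries, and its log2 fold changes lay between -0.13 and 0.34 over the comparisons. Of its 50-base stretches 79.8% also stand in the overlapping gene Gm20425, so that reads of the pair cannot be told apart. Slc11a2 (GeneID 18174) was at 44.0 and 41.9 CPM in WP, 45.6 and 41.8 in WH, 34.7 and 31.9 in TP, and 22.5 and 33.6 in TH. Every library of DDAH1-transgenic mice was below every library of wild type mice, at log2 fold changes of -0.38 ± 0.26 after PBS and -0.60 ± 0.32 after HDM (adjusted p = 0.692 and 0.389).

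Slc11a1 (GeneID 18173), the metal pump of the phagosome in macrophages and neutrophils, was at 37.3 and 33.5 CPM in WP, 35.7 and 29.0 in WH, 24.8 and 29.1 in TP, and 39.5 and 33.5 in TH. TP was lowest but overlapped with WH, and TH minus TP came to 0.46 ± 0.32 (edgeR adjusted p = 0.39). Slc40a1 (GeneID 53945), the exporter, had only 14 to 67 counts in a library and 1.41 to 6.89 CPM. Its SEs of 0.68 to 0.84 in the comparisons of 4 libraries mean that a change of the size seen in Ftl1 was not detectable at this depth.

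Of the 2 haem genes, Cd163 and Hmox1, only Hmox1 passed the threshold in any comparison. The mean of Hmox1 was lowest in TP. Hmox1 (GeneID 15368, chromosome 8, bases 75093618 to 75100593) was at 35.1 and 61.5 CPM in WP, 45.03 and 43.5 in WH, 12.4 and 19.4 in TP, and 72.8 and 40.9 in TH. Both TP libraries were below all 6 others, and the other groups overlapped. It was lower in TP than in WP by a log2 fold change of -1.61 ± 0.34 (3.06-fold, edgeR adjusted p = 0.0259), and of all genes tested there 0.657% were past the threshold and 0.375% were lower. It rose with HDM in DDAH1-transgenic mice by 1.86 ± 0.39 (3.64-fold, adjusted p = 0.00803) and on average by 0.85 ± 0.24 (adjusted p = 0.019). In wild type it was at -0.13 ± 0.28 (adjusted p = 0.859), and TH minus WH came to 0.40 ± 0.32 (adjusted p = 0.589).

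The difference between the genotype effects of Hmox1, after HDM minus after PBS, was 1.96 ± 0.49 and passed narrowly (edgeR adjusted p = 0.0475), where 1.76% of all genes were past the threshold. This difference cannot be told apart from a difference of the genotype effect between the sexes. It kept that side of the threshold in 8 of 18 alternative settings. The call was lost without WP replicate 2, WH replicate 1, WH replicate 2, TP replicate 1, TP replicate 2 or TH replicate 1, at values of 1.49 to 2.33 and adjusted p-values of 0.0519 to 0.263, and with the transcript-length offset it came to 1.65 (adjusted p = 0.147). The lower level in TP was lost without WP replicate 2, at -1.16 (adjusted p = 0.427), and with the transcript-length offset, at -1.52 (adjusted p = 0.0512). The rise in DDAH1-transgenic mice was lost with that offset (1.39, adjusted p = 0.0512), without TP replicate 1 (1.56, adjusted p = 0.135) and without TP replicate 2 (2.22, adjusted p = 0.0775). The rise on average was lost without WP replicate 1 (0.68, adjusted p = 0.108), without TP replicate 1 (0.70, adjusted p = 0.0875), without TH replicate 1 (0.62, adjusted p = 0.0922) and with the transcript-length offset (0.58 ± 0.26, adjusted p = 0.144).

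Cd163 (GeneID 93671), the haemoglobin scavenger receptor of macrophages, had 32 to 97 counts in a library. It lay between 3.69 and 8.67 CPM, and the highest value was WH replicate 1. Its SEs were 0.61 to 0.76 in the comparisons of 4 libraries, and a change had to be well above its SE to pass the threshold. Cd163 passed in none of the comparisons.

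Counted by comparison, and leaving out Fth1 where it was not tested, 1 of 9 genes was past the threshold after PBS (Hmox1, lower in TP), against 0.657% of all genes past the threshold and 0.375% lower, and 0 of 9 after HDM in edgeR, where 2 of the 9 had an unadjusted p under 0.05, against 16.2% of all genes, and DESeq2 also called 0. Of all genes, 2.44% were past the threshold in TH minus WH. In wild type, 1 of 9 rose with HDM (Cp), against 6.74% of all genes past the threshold and 4.44% higher. In DDAH1-transgenic mice 3 of 9 rose (Hmox1, Tfrc and Ftl1), against 13.8% past the threshold and 8.43% higher. Without TP replicate 1 or without TP replicate 2, none of those 3 passed and the calls over all genes fell from 2079 to 404 and 277. On average over both genotypes 5 of 10 passed and were higher (Hmox1, Tfrc, Ftl1, Fth1 and Cp), and 0 passed and were lower. Of all genes, 19.1% were past the threshold there, 10.6% higher and 8.51% lower. Fth1 counts there although WH was below WP, and its choice read the same libraries. The libraries of the groups did not overlap, leaving out Fth1, for 5 of 9 genes in TP minus WP (40.3% of all genes), 5 of 9 in TH minus WH (48.2%), 4 of 9 in WH minus WP (49.8%) and 4 of 9 in TH minus TP (56.8%), and these shares were near the background. All 9 of these genes were below their WP level in TP, with a median log2 fold change of -0.38, while 49.9% of all genes were lower and the median of all genes was 0.00. The values of Trf, Slc40a1, Cp and Cd163 were smaller than their SE. Those of Trf, Cp and Cd163 changed sign with a TP library left out. The genes were measured in the same pools and are no replicates of each other.

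**Figure D3:**
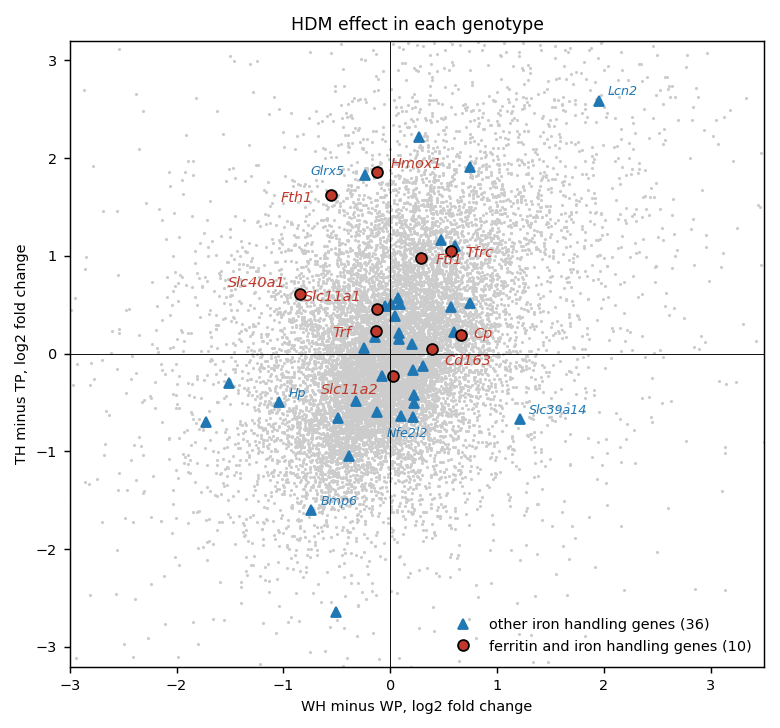
Log2 fold change with HDM in wild type (x axis) and in DDAH1-transgenic mice (y axis) for the 10 genes (red circles), 36 other iron handling genes tested in both (blue triangles) and all other genes (grey, with those beyond the axes not drawn). Fth1 lay at -0.55 and 1.62, Hmox1 at -0.13 and 1.86, and Lcn2 at 1.95 and 2.59.

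Another 44 genes of iron handling were listed for comparison, and 36 to 39 of them were tested. Of those tested, 1 of 37 passed in TP minus WP (0.657% of all genes did), 2 of 36 in TH minus WH (2.44%), 3 of 37 in WH minus WP (6.74%), 5 of 37 in TH minus TP (13.8%), 7 of 39 over both genotypes (19.1%) and 0 of 39 in the difference between the genotype effects (1.76%), where 9 had an unadjusted p under 0.05 (14.7% of all genes did) and DESeq2 called 3. The median log2 fold change of the list lay between -0.12 and 0.11 in all of these, and that of all genes between 0.00 and 0.03.

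Lcn2, which captures bacterial siderophores and is made by epithelium and neutrophils, is a secreted binder. It was lower in TP than in WP by a log2 fold change of -1.07 ± 0.15 (edgeR adjusted p = 0.000826), rose with HDM by 1.95 ± 0.13 in wild type (adjusted p = 2.84e-07) and by 2.59 ± 0.22 in DDAH1-transgenic mice (adjusted p = 2.35e-05), and passed with each library left out in turn. With the transcript-length offset its value in TH minus TP was 1.72 and still past the threshold. Ltf, lactoferrin, rose on average by 1.23 ± 0.40 (adjusted p = 0.0384). Among the carriers and reductases, Slc39a14, a zinc and iron importer, rose in wild type by 1.21 ± 0.33 (adjusted p = 0.0414), Steap4, a metalloreductase, rose on average by 1.32 ± 0.31 (adjusted p = 0.00568), and Cybrd1, the duodenal ferric reductase, was lower in TH than in WH by -0.93 ± 0.21 (adjusted p = 0.0401). The call on Ltf was lost without WP replicate 1 or 2, WH replicate 1 or 2, TP replicate 1 or TH replicate 2 (0.82 to 1.33, adjusted p = 0.0521 to 0.109), with the transcript-length offset (1.14, adjusted p = 0.0615) and with the GC offset (1.12, adjusted p = 0.0559), while without TP replicate 2 its value was 2.27 and passed. The call was also lost for Slc39a14 without WP replicate 1 or 2 or WH replicate 1 (1.06 to 1.37, adjusted p = 0.0642 to 0.25) and in the fit of all 8 libraries (1.21, adjusted p = 0.0681). For Cybrd1 it was lost without WH replicate 1 or 2 (-1.01 to -0.85, adjusted p = 0.299 to 0.437) and with the transcript-length offset alone (-0.78, adjusted p = 0.124) or with the block (-0.78, adjusted p = 0.0535).

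Among the regulators, Bmp6, the signal that induces hepcidin, fell with HDM in DDAH1-transgenic mice by 1.60 ± 0.38 on the log2 scale (edgeR adjusted p = 0.016) and on average by 1.17 ± 0.25 (adjusted p = 0.00261). Nfe2l2, the gene of NRF2, a known activator of Hmox1 and ferritin genes, was lower in TH than in TP by -0.63 ± 0.19 (adjusted p = 0.0441). Hp, haptoglobin, fell in wild type by 1.04 ± 0.15 (adjusted p = 0.00065) and on average by 0.78 ± 0.12 (adjusted p = 0.000176). Among the mitochondrial genes, Glrx5, an iron-sulphur cluster protein, was higher in TH than in WH by 2.34 ± 0.50 (adjusted p = 0.0332) and than in TP by 1.83 ± 0.48 (adjusted p = 0.0266). Without TP replicate 1 or 2, the calls in DDAH1-transgenic mice on Bmp6 (-1.62 to -1.60), Nfe2l2 (-0.77 to -0.49) and Glrx5 (1.76 to 1.88) were lost, while without TH replicate 2 the value of Bmp6 was -2.53 and passed. Those on Nfe2l2 (-0.53, adjusted p = 0.0585) and Glrx5 (1.73, adjusted p = 0.0738) were lost also without TH replicate 1, and that on Glrx5 in TH minus WH without WH replicate 1 or 2 (2.21 to 2.47, adjusted p = 0.242 to 0.315). The call on Glrx5 was lost as well with the transcript-length offset in TH minus WH (2.33, adjusted p = 0.0577), and with the coding-length offset in TH minus WH (1.93, adjusted p = 0.102) and in TH minus TP (1.20, adjusted p = 0.127).

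**Figure D4:**
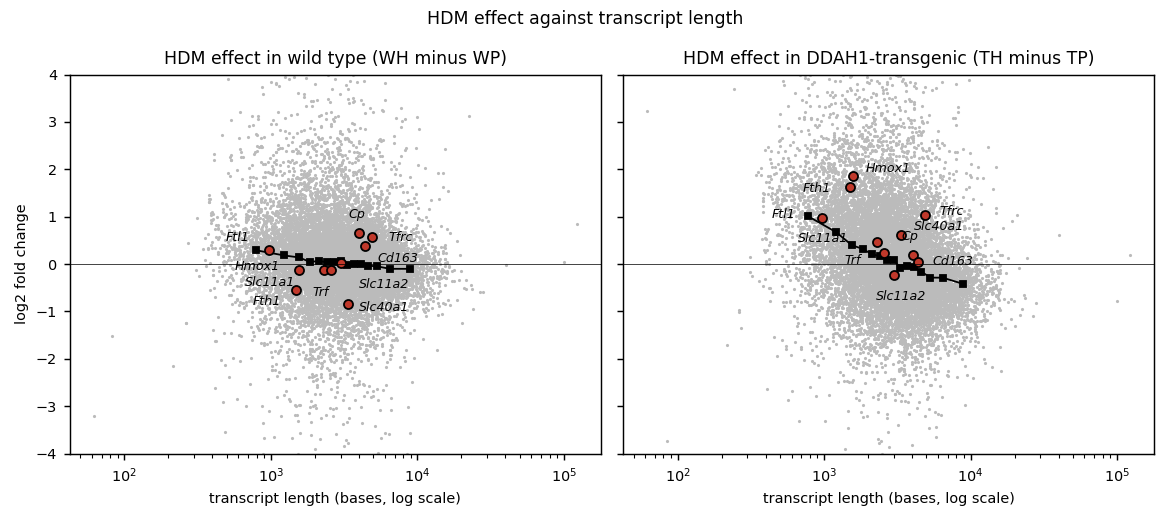
Log2 fold change with HDM against transcript length (bases, log scale) in wild type and in DDAH1-transgenic mice. Grey points are all genes within the axes, black squares are medians of 15 groups of genes by length, and red circles are the 10 genes. The median over genes of 800 to 1600 bases was 0.18 in wild type and 0.60 in DDAH1-transgenic mice.

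The log2 fold changes of the comparisons with TH, and less those of WH minus WP, ran with gene length. This bears on the ferritin genes and Hmox1 because their transcripts are short, at 1494, 968 and 1569 bases. Over genes, which are no replicates of each other, the Spearman correlation of log2 fold change with transcript length was -0.126 in WH minus WP, -0.331 in TH minus TP, -0.281 in TH minus WH and 0.0129 in TP minus WP. In TH minus TP, 2073 genes of 800 to 1600 bases had a median of 0.60 and 7148 genes of at least 3000 bases a median of -0.19. Fth1, at 1.62, and Hmox1, at 1.86, lay above the median of that length range, and Ftl1, at 0.97, lay closer to it. With the transcript-length offset, Fth1 stayed higher in TH than in WH by 1.25 ± 0.13 and lower in TP than in WP, at -0.56 ± 0.09. The TH libraries also held the smallest share of 45S ribosomal RNA, 8.58 and 9.37% of counts against 14.8 to 21.8% in the other libraries. The part of length, and that of this difference between libraries, in the values above was not tested further.

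**Figure D5:**
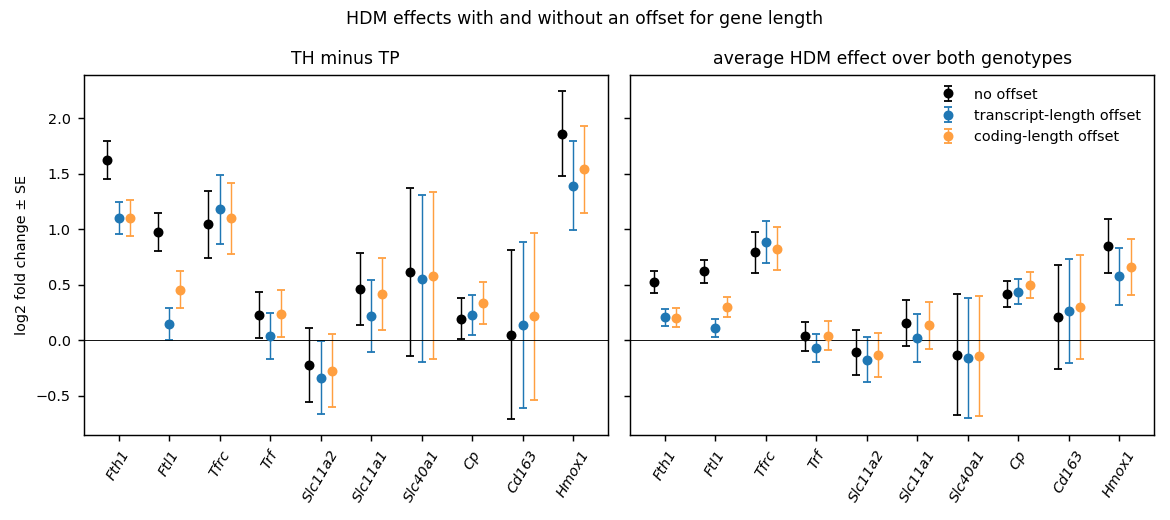
Log2 fold change with its SE (y axis) of the 10 genes (x axis) in TH minus TP and for the average HDM effect, with no offset (black), a transcript-length offset (blue) and a coding-length offset (orange). Ftl1 in TH minus TP went from 0.97 to 0.15 and 0.46, while Tfrc stayed between 1.05 and 1.18.

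The levels of cell type markers moved with the groups as well, and in bulk lung fewer cells of a type and less RNA per cell cannot be told apart. The summed level of 11 macrophage markers was 362 to 375 CPM in WP and 322 to 363 in TP, and 1043 to 1226 in WH and 916 to 932 in TH. Of these markers, 8 were higher with HDM and past the threshold in wild type, against 4.44% of all genes. In DDAH1-transgenic mice 9 were, against 8.43% of all genes. Marco was lower and past the threshold on average over both genotypes. Within a genotype, Hmox1, Ftl1 and Tfrc passed in DDAH1-transgenic mice only, and Cp passed in wild type only. For Ftl1, Tfrc and Cp the difference between the genotypes did not pass, and their values were above those of PBS in both genotypes. The relation of these genes to the markers was not tested. The 5 markers of resident tissue macrophages summed to 382 to 389 CPM in WP and 379 to 449 in TP, and 240 to 242 in WH and 153 to 201 in TH. Neutrophil markers (7 genes) were at 433 to 459 CPM in WP, 184 to 211 in TP, 246 to 250 in WH and 267 to 270 in TH. In TP minus WP all 7 were lower and 4 of them passed the threshold, against 0.375% of all genes that were lower and passed. Hmox1 and Lcn2 were also lower in TP than in WP. Eosinophil markers (6 genes) were at 81.4 to 103 CPM in WP, 242 to 247 in WH, 103 to 120 in TP and 159 to 167 in TH.

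The 7 erythroid markers found, whose cells hold much iron in haemoglobin, summed to 6266 to 7388 CPM in WP, 2522 to 3237 in WH, 10586 to 11850 in TP and 2894 to 4167 in TH. Skeletal muscle markers (6 genes) were at 2.81 to 6.20 CPM in WP, 79.6 to 103 in WH, 166 to 167 in TP and 41.5 to 57.0 in TH. Adipocyte markers (6 genes) were at 67.7 to 78.8 CPM in WP, 31.5 to 36.5 in WH, 23.2 to 31.5 in TP and 18.7 to 74.3 in TH. Of 6 hepatocyte markers, whose cells make Trf, Cp, Hp and hepcidin, Ttr and Fgb were at 0 in all libraries, and the sum of the list stayed at or below 31.4 CPM. The part of these cells in the results above was not tested.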

How the data were processed

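Lung RNA of 4 mice per group was pooled, and 2 libraries per pool were sequenced. The authors amplified the RNA, read 50 bases, aligned with TopHat to mm10 (GRCm38), and deposited raw read counts in coding regions per Entrez gene (ShortRead and R). Handling of reads with several matches, and the tools' versions apart from CASAVA 1.8, are not given in the sources used here. All columns were used. Names and positions came from RefSeq GRCm38.p6 (23372 genes), lengths and sequences from GENCODE M21 (21145 genes).

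The members, lists and tests were chosen with earlier results of these data known. Counts were tested with edgeR 4.0.16 (R 4.3.3), quasi-likelihood, TMM, filterByExpr minimum 10, Benjamini-Hochberg over all genes, on the 4 libraries of a comparison, or all 8 for the average and the interaction. SE is the log2 fold change over the square root of F. Scripts were tested on simulated data. CPM used TMM over 8 libraries, and 3 counts came to 0.232 to 0.449 CPM, which covers counting error only. All 10 members are named, and of other iron genes at most 3 past the threshold per direction and comparison with the largest change, with the 5 genes most correlated with Fth1 (at least 50 counts per group). Alternatives were RLE factors, DESeq2 1.42.0, no filter, replicate block, offsets for transcript length, coding length (added after seeing the data) and GC (loess, span 0.5), library sizes without 45S ribosomal RNA and haemoglobin, added ferritin copies, all 8 libraries, and each library left out. Of the marker genes, Siglec5, Hbb-bt and Ahsp were not matched in the table. The result of 1 gene under the naming rule is not reported here.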

Additional observations from a re-analysis of the deposited data

Results flagged for a closer look

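The genotype effect on Hmox1 differed between the PBS and the HDM groups, for which treatment and sex cannot be told apart. TH minus WH was 0.40 ± 0.32 and TP minus WP was -1.61 ± 0.34 on the log2 scale. The difference, tested as an interaction in edgeR over all 8 libraries, was 1.96 ± 0.49 (adjusted p = 0.0475). Over 18 alternative settings it lay between 1.49 and 2.33 and passed in 8 of them. All libraries of TP (12.4 and 19.4 CPM) were below all others (35.1 to 72.8 CPM). With 2 libraries per group no library could be screened as an outlier.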

How the results depend on the processing

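Fth1 kept its sign in every contrast and setting, at -0.68 to -0.56 in TP minus WP, 1.23 to 1.79 in TH minus WH, -0.70 to -0.53 in WH minus WP, 1.09 to 1.85 in TH minus TP and 1.78 to 2.40 in the interaction. The number of genes of the set past the threshold was 0 in TP minus WP with the transcript-length offset (1 as reported). It was 3 in WH minus WP with no filter and 2 with the transcript-length offset and block (1). It was 1 in TH minus TP with the transcript-length offset (3). On average over genotypes it was 2 with that offset, 3 with the offset and block and 3 with the coding-length offset (5). In the interaction it was 2 with no filter and 0 with the transcript-length offset, with that offset and block, with the coding-length offset and with the GC offset (1). With single libraries left out it ranged from 0 to 1 in TP minus WP, 0 to 1 in TH minus WH (Ftl1, 0.65, without TH replicate 1, and Cp without TH replicate 2), 1 to 2 in WH minus WP, 0 to 3 in TH minus TP, 3 to 5 on average and 0 to 1 in the interaction. The lone library left in a group is then assumed to vary like the others. The group with the highest mean stayed the same for 6 of 10 genes with the transcript-length offset (not for Ftl1, Slc11a2, Slc11a1 and Hmox1) and for all 10 with RLE factors and with library sizes without 45S ribosomal RNA and haemoglobin. It was not computed with the GC and coding-length offsets. Adding the ferritin copies changed nothing, since they had 0 counts.

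Replicate numbers do not pair the libraries: deviations of same-numbered libraries correlated at -0.021 to 0.032 over 15868 genes. With the replicate block the number past the threshold was 0 in TP minus WP and 2 in the interaction, Hmox1 in TP minus WP came to -1.60 (adjusted p = 0.0685 in edgeR), and Ftl1 joined in the interaction (0.65, adjusted p = 0.0392).

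Reversed signs were small and never past the threshold. Ftl1 in TH minus WH was -0.068 with the transcript-length offset and -0.073 with that offset and block. Slc11a2 in WH minus WP was -0.018 with the transcript-length offset, -0.019 with offset and block and -0.037 with the GC offset. Cd163 in TH minus TP was -0.083 with the GC offset. Trf on average was -0.069 with the transcript-length offset, -0.067 with offset and block and -0.094 with the GC offset. With libraries left out, TP minus WP ranged from -0.26 to 0.031 for Trf, -0.16 to 0.024 for Cp and -0.46 to 0.019 for Cd163. TH minus WH ranged from -0.56 to 0.15 for Tfrc and -0.094 to 0.77 for Hmox1. WH minus WP ranged from -0.041 to 0.071 for Slc11a2, -0.11 to 0.75 for Cd163 and -0.48 to 0.32 for Hmox1. TH minus TP ranged from -0.55 to 0.013 for Slc11a2 and -0.18 to 0.31 for Cd163. The average ranged from -0.041 to 0.11 for Trf, -0.27 to 0.019 for Slc11a2, -0.72 to 0.22 for Slc40a1 and -0.045 to 0.38 for Cd163, and the interaction from -0.73 to 0.14 for Cd163.

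Over all genes the calls ranged from 45 to 432 in TP minus WP (98 as reported, 223 with DESeq2), 6 to 1595 in TH minus WH (370, 922 with DESeq2), 652 to 1661 in WH minus WP (1020), 277 to 2834 in TH minus TP (2079), 2117 to 3625 on average (3036) and 138 to 721 in the interaction (279, 680 with DESeq2). The cause of these changes was not tested.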
